A study of Mus musculus with 2 samples.

Results

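DPPA2 occupancy was examined at 10 germ cell regulator and testis genes: Dazl, Stra8, Sohlh1, Sohlh2, Taf7l, Brdt, Slc25a31, Tex101, Tex19.1 and Dmrtb1. They were taken by name from the 21887 protein-coding genes of the RefSeq table (GRCm38.p6, the same build as mm10), and all 10 were found there. The data are ChIP-seq peak lists from R1/E, a mouse embryonic stem cell line that is wild type for p53 (p53+/+), kept on gelatin in medium with serum and leukemia inhibitory factor. One library was made from untreated cells. The second was made after 8 h of adriamycin, a DNA-damaging topoisomerase poison also called doxorubicin. The design asks where DPPA2 binds after DNA damage. With 1 library per group and a single cell line, no test between the groups was possible, and each difference is one between 2 peak lists. A peak was assigned to a gene when its summit, the position of highest coverage, lay within 1 kb of either end of the gene, further inside it, or up to 50 kb outside it. Of 7043 untreated peaks 5 were assigned in this way, and of 16229 adriamycin peaks 20 were.

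Germ cell genes of this kind are used during the formation of eggs and sperm and are kept silent in most other cells. Their promoters often hold CpG dinucleotides whose methylation is part of that silencing, and in embryonic stem cells a Polycomb complex with the DNA-binding proteins MGA, MAX and E2F6 also represses many of them. MAX-containing dimers recognise the E-box CACGTG, and E2F proteins a site with the core GCGGGAA. DPPA2 is a SAP-domain protein of pluripotent and germ cells that works with DPPA4 and is known from CpG-rich promoters with both active and repressive histone marks. Peak lists hold no expression values, so whether these cells transcribed the 10 genes was not measured.

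Upstream sequences are shown for the 3 genes with a start peak in both lists (Dazl, Sohlh1 and Slc25a31). They are also shown for Taf7l, a CACGTG promoter with a peak in the adriamycin list alone. Tex19.1 is shown because its start peak lay wholly upstream of its start. Each sequence ends just before the gene's first annotated base and has CACGTG in capitals. It is given 5′ to 3′ on the gene's strand from RefSeq (GRCm38.p6). The search covered both strands for CACGTG, which is its own reverse complement, and for GCGGGAA, which reads TTCCCGC when found on the opposite strand. No match to one motif overlapped a match to the other.
Dazl, chr17:50293621-50293870, minus strand: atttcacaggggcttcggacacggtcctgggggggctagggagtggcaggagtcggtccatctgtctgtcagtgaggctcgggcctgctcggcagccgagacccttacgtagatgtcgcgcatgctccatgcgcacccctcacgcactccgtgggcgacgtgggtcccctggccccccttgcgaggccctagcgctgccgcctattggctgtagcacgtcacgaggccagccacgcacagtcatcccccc
Sohlh1, chr2:25847249-25847498, minus strand: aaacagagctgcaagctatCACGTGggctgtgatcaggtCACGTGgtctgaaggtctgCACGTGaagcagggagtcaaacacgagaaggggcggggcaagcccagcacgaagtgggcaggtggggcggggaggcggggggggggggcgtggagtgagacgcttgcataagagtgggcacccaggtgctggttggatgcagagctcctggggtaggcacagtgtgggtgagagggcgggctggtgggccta
Slc25a31, chr3:40708621-40708870, plus strand: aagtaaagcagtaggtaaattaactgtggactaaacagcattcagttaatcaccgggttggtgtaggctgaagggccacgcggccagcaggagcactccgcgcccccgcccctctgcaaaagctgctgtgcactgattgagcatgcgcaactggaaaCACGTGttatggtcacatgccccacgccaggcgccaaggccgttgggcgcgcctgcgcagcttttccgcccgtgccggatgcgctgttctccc
Taf7l, chrX:134476506-134476740, minus strand: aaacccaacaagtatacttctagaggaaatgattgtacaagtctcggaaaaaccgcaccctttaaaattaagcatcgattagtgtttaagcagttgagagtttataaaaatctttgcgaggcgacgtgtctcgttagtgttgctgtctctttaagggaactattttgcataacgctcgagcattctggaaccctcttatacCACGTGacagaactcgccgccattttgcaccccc
Tex19.1, chr11:121145893-121146142, plus strand: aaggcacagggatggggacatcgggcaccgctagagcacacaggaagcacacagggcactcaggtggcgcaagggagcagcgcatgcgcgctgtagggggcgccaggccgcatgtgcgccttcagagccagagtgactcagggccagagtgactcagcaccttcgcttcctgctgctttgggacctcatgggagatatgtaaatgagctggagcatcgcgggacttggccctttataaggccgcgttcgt

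At the starts of these genes DPPA2 peaks were listed for 3 of 10 genes in untreated cells, against 5.91% of all genes with a known start. After adriamycin they were listed for 9 of 10, against 15.8%. Dazl, Sohlh1 and Slc25a31 had one in both lists, as did 4.72% of all genes with a known start site. Brdt, Taf7l, Tex19.1, Tex101, Sohlh2 and Dmrtb1 had one with adriamycin and none untreated, against 11.1% of all genes with a known start. Stra8 had none in either list, and no gene had one in the untreated list alone, against 1.18% of the 17492 genes with a known start. By the assignment to either gene end, Dmrtb1 is left out because its annotated span runs well beyond its start sites, which lie inside it. The counts were then 3 of 10 untreated, against 5.78% of all protein-coding genes, and 8 of 10 with adriamycin, against 16.0%. Both lists held 3 of 10, against 4.51% of all genes, and 5 of 10 were listed with adriamycin but not untreated, against 11.5%. None was listed untreated but not with adriamycin, against 1.27%. The count by either gene end was the main one, and the count at start sites, also within 1 kb, was an alternative to it. The genes were chosen with earlier results of these data known, so these counts describe the 10 genes and are no test of them.

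**Figure D1:**
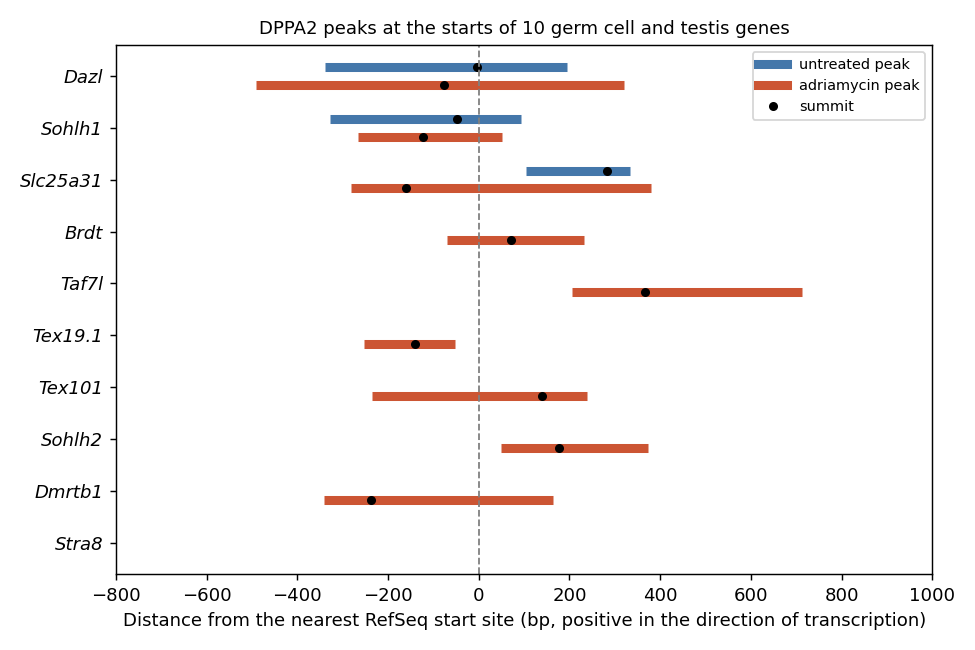
Peaks within 1 kb of a RefSeq start site, in bp from the nearest start and positive in the direction of transcription; bars are peak intervals (blue untreated, red adriamycin) and black points are summits. Dazl, Sohlh1 and Slc25a31 have a bar from each list, 6 genes have a red bar alone, and Stra8 has none.

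The adriamycin list was 2.30 times as long as the untreated list, so the counts were repeated with lists of equal length and with stricter peaks. When the adriamycin list was shortened to its 7043 strongest peaks by −log10 q, 5 of 10 genes kept a gene-end peak (Dazl, Sohlh1, Slc25a31, Brdt and Taf7l), against 5.73% of all genes. The untreated list has 7043 peaks already, so its count of 3 of 10 could not change. The same 5 genes were left in the adriamycin list with a q of at most 1e-05, against 7.12% of all genes, and with a fold of at least 5, against 6.94%. The fold is the ratio of summit to local background from the authors' peak caller; it ranks peaks within a list and is not scaled between lists. Whether the caller was given an input library is not stated in the labels, so the part of input signal in these folds was not tested. Both of these limits left Dazl and Sohlh1 in the untreated list, against 2.10% and 2.14%. Counted at start sites, the 9 of 10 genes with adriamycin became 5 of 10 under each of the 3 settings, against 5.71% at equal length (5.91% untreated), 7.11% with the q limit (2.12% untreated) and 6.98% with the fold limit (2.19% untreated) of all genes with a known start. The start peaks lost under all 3 were those of Tex19.1, Tex101, Sohlh2 and Dmrtb1.

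**Figure D2:**
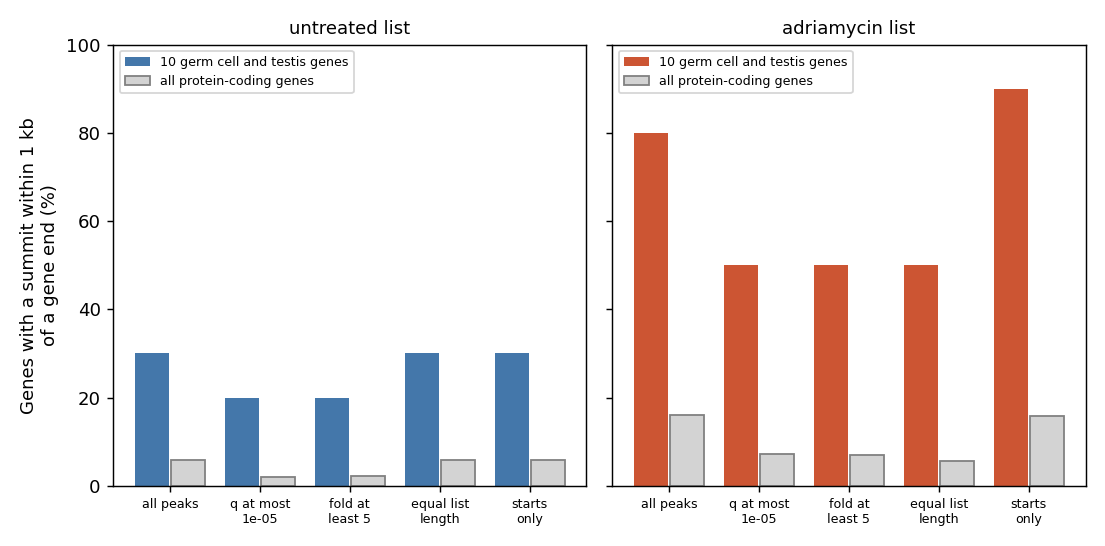
Percent of the 10 genes (coloured bars) and of all protein-coding genes (grey bars) with a summit within 1 kb of a gene end. Each list is shown with all peaks and under 4 other settings. The last pair counts start sites alone, and its grey bar is over the genes with a known start. The adriamycin bar for the 10 genes is 80% with all peaks and 50% at equal list length, where the grey bar is 5.73%.

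Every gene-end peak of the 10 genes lay at the start and none at the far end. In the untreated list the 3 summits lay 4, 48 and 283 bp from the start site, and in the adriamycin list the 9 summits near a start lay 72 to 366 bp from it. Summits near a start of any protein-coding gene had a median distance of 235 bp (quartiles 119 and 388) untreated and 218 bp (117 and 358) with adriamycin. Among all genes with a known start and a gene-end peak, the peak was at the start for 84.8% untreated and 85.8% with adriamycin.

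Dazl, which encodes an RNA-binding protein needed for germ cell development, had the strongest untreated peak of the group. The gene lies on the minus strand of chromosome 17, 50279393 to 50293620. The untreated peak spanned 50293425 to 50293958 with its summit 4 bp upstream of the start, a fold enrichment of 6.98 and a pileup of 23 fragments at the summit (95% Poisson interval 14.6 to 34.5). In the adriamycin list the peak spanned 50293299 to 50294111 with its summit 77 bp upstream, a fold of 7.81 and 24 fragments at the summit (interval 15.4 to 35.7). The pileup intervals overlap almost wholly, and the adriamycin peak contains the whole untreated one. Within its own list 14.9% of untreated and 9.36% of adriamycin peaks had a higher fold. The Dazl window from 250 bp before to 50 bp after the start holds 28 CpG and neither motif.

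Sohlh1 and Sohlh2 encode basic helix-loop-helix transcription factors that act together in early spermatogonia and oocytes, and they differed in these lists. Sohlh1 (chromosome 2, 25842995 to 25847248, minus strand) had a peak in both. Its untreated peak, 25847155 to 25847575, had a summit 48 bp upstream of the start, a fold of 5.36 and 20 fragments at the summit (interval 12.2 to 30.9). Its adriamycin peak, 25847196 to 25847514, had a summit 124 bp upstream, a fold of 5.35 and 19 fragments at the summit (interval 11.4 to 29.7). The 2 sets of values, not scaled between the lists, are nearly equal, and both folds are close to their list's median of 5.16 and 5.10. The sequence printed for Sohlh1 holds CACGTG 3 times, centred 228, 208 and 189 bp before the start. The 3 lie 65 to 104 bp from the adriamycin summit and 141 to 180 bp from the untreated one. Of all 21263 promoter windows of protein-coding genes, 0.748% hold CACGTG more than once and 7.84% at least once.

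Sohlh2 (chromosome 3, 55182044 to 55209957, plus strand) had its nearest untreated summit 390866 bp from an end. The adriamycin list held a peak at 55182093 to 55182416, its summit 177 bp inside the gene, and it had a fold of 3.62 and 9 fragments at the summit (interval 4.12 to 17.1). This was the weakest start peak of the group, and 96.2% of adriamycin peaks had a higher fold. Its promoter window holds neither motif.

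Stra8 encodes the retinoic acid-induced factor that meiosis in both sexes depends on. It was the one gene of the 10 without a peak near a start in either list. Stra8 (chromosome 6, 34920163 to 34939344, plus strand) had its nearest untreated summit 210524 bp from an end. In the adriamycin list 1 peak lay inside the gene at 34927545 to 34927848, 6785 bp downstream of the start, and it had a fold of 4.10 and 10 fragments at the summit (interval 4.80 to 18.4). Of adriamycin peaks 84.9% had a higher fold. Whether that position is exonic or intronic is not given in the gene table used here. The Stra8 promoter window holds 10 CpG and neither motif.

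Dmrtb1 encodes DMRT6, a DM-domain transcription factor of the switch from spermatogonia to meiosis. It had 5 peaks in the adriamycin list, the most of the 10 genes, and none in the untreated list, where the nearest summit was 106712 bp from an end. The gene (chromosome 4, 107676288 to 107704011, minus strand) has 2 start sites among the RefSeq promoter windows used here, at 107683589 and 107684230. Both lie inside its annotated span, which runs further upstream. One adriamycin peak, 107683425 to 107683931, had its summit 238 bp upstream of the first start and downstream of the second. It showed a fold of 4.04, lower than that of 86.9% of adriamycin peaks, and 18 fragments at the summit (interval 10.7 to 28.4). Its local background of 3.70 fragments was 3.60 times the lowest recovered in that list. That was the highest background of all 25 assigned peaks. A second peak inside the gene, 107679300 to 107679499, lay 4200 bp downstream of the first start with a fold of 3.76. The remaining 3 lay outside the gene, at 19404, 46110 and 47271 bp from an end.

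Brdt and Taf7l encode testis forms of general gene-expression factors, and each had a start peak in the adriamycin list alone. BRDT is the testis member of the BET bromodomain family, which binds acetylated histones. Brdt (chromosome 5, 107331116 to 107387061, plus strand) had a peak at 107331123 to 107331426, its summit 72 bp downstream of the start, with the highest fold of the group, 7.97, and 21 fragments (interval 13.0 to 32.1). Of adriamycin peaks 8.37% had a higher fold. CACGTG lies 75 bp before the start and 147 bp from that summit. The nearest untreated summit lay 16420 bp from an end of Brdt.

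TAF7L is a germ cell paralog of the TFIID subunit TAF7. Taf7l (chromosome X, 134460116 to 134476505, minus strand) had a peak at 134475778 to 134476285, its summit 366 bp downstream of the start, at a fold of 5.91 and 12 fragments at the summit (interval 6.20 to 21.0). This was the summit farthest from a start among the 9. The nearest untreated summit was 1326940 bp away, the longest such distance of the 10 genes. The printed sequence has CACGTG 46 bp before the start, 412 bp from the summit.

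Slc25a31 encodes ANT4, the ADP/ATP carrier of germ cell mitochondria, and its peaks had different summits in the 2 lists. Slc25a31 (chromosome 3, 40708871 to 40726094, plus strand) had an untreated peak at 40708975 to 40709204, its summit 283 bp downstream of the start, at a fold of 4.51 and 11 fragments at the summit (interval 5.49 to 19.7). The adriamycin peak spanned 40708590 to 40709250 with its summit 161 bp upstream, a fold of 5.59 and 15 fragments at the summit (interval 8.40 to 24.7). The summits were 444 bp apart. All 230 bp of the untreated peak lay inside the adriamycin peak, of which they made up 34.8%. The pileup intervals overlap, with no scaling between the lists. Slc25a31 was the one gene with both motifs in its window. CACGTG lay 90 bp before the start, 71 bp from the adriamycin summit and 373 bp from the untreated one. TTCCCGC lay 22 bp after the start, 183 bp from the adriamycin summit and 261 bp from the untreated one.

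Tex101 and Tex19.1 had a start peak in the adriamycin list alone, at folds below that list's median of 5.10. Tex101 encodes a surface glycoprotein of germ cells needed for sperm function. Tex101 (chromosome 7, 24668012 to 24672050, minus strand) had a peak at 24671811 to 24672285, its summit 140 bp downstream of the start, at a fold of 3.98 and 13 fragments at the summit (interval 6.92 to 22.2). Tex19.1, which helps to hold transposons in check in germ cells and is also active in pluripotent cells and placenta, lies on chromosome 11, 121146143 to 121148314, plus strand. Its peak at 121145890 to 121146091 had a summit 141 bp upstream of the start, a fold of 4.40 and 13 fragments at the summit (interval 6.92 to 22.2). The median pileup of all peaks, the number of fragments at the summit, was 14 in both lists, so both peaks were near it in depth. By fold they ranked low: 88.4% of adriamycin peaks had a higher fold than the Tex101 peak and 75.4% than the Tex19.1 peak. The nearest untreated summits were 82031 bp from Tex101 and 13116 bp from Tex19.1.

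**Figure D3:**
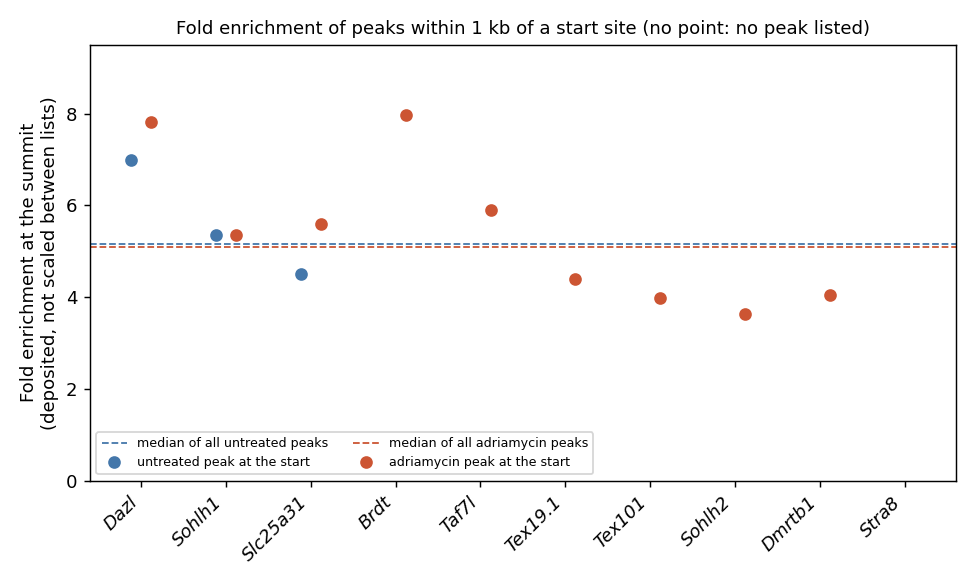
Deposited fold enrichment at the summit of each peak within 1 kb of a start site, by gene (blue untreated, red adriamycin), with dashed lines at the median of all peaks of each list (5.16 and 5.10). Dazl and Brdt stand highest, at 7.81 and 7.97 in the adriamycin list, and Sohlh2 lowest, at 3.62.

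A gene without a listed peak was not shown to lack DPPA2. Among untreated peaks with a local background of 1.5 to 2.5 fragments, the smallest pileup listed was 8, and among adriamycin peaks it was also 8. Of the start peaks in the adriamycin list alone, those of Sohlh2, Brdt and Tex19.1 had a background in that range, and those of Taf7l (1.20), Tex101 (2.52) and Dmrtb1 (3.70) had not. The 6 adriamycin start peaks without an untreated counterpart had pileups of 9 (Sohlh2), 12 (Taf7l), 13 (Tex101 and Tex19.1), 18 (Dmrtb1) and 21 (Brdt). Depth at these positions in the untreated library was not measurable from a list of called peaks. The genome-wide background, taken as the lowest local background recovered at any peak of a list, was 1.19 fragments untreated and 1.03 with adriamycin.

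Further from the 10 genes, the peaks lay partly at other genes. Inside the gene or within 50 kb, 5 of 10 genes had a peak in the untreated list, against 36.4% of all genes, and 10 of 10 in the adriamycin list, against 66.6%. The same 5 had one in both lists, against 34.1%, the other 5 with adriamycin alone, against 32.5%, and none untreated alone, against 2.36%. With a q of at most 1e-05 the untreated count was 2 of 10, near the 18.5% of all genes, and at equal list length the adriamycin count was 6 of 10, against 37.0%. Outside the genes there were 2 untreated and 9 adriamycin peaks, at folds of 5.03 to 5.04 and 3.70 to 5.76. Downstream of Brdt, the untreated peak at 107403347 to 107403614 and the adriamycin peak at 107403481 to 107403886 had summits 32 and 31 bp from the end of Ephx4, an epoxide hydrolase gene. Their folds were 5.04 and 3.70. A further adriamycin summit, 41584 bp from Brdt, was 97 bp from an end of Tgfbr3, a TGF-beta co-receptor gene, with a fold of 5.00. Near Tex19.1 the peak at 121161284 to 121161489 untreated and 121161217 to 121161493 with adriamycin lay inside Uts2r, the urotensin receptor gene, 543 and 647 bp from its end. The folds there were 5.03 and 5.76, with pileups of 14 (7.65 to 23.5) and 15 (8.40 to 24.7). These 5 peaks lie at ends of neighbouring genes by the same 1 kb rule, so that at Brdt the untreated peak belongs as well to Ephx4, and at Tex19.1 to Uts2r.

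Of the other 6 adriamycin peaks outside the 10 genes, 3 lay inside a neighbour. They were in Kcnt1, a potassium channel gene, at a summit 30877 bp from Sohlh1, in Ccdc169 near Sohlh2, and in Glis1, a zinc finger factor gene near Dmrtb1, with folds of 5.26, 4.78 and 4.51. The rest lay between protein-coding genes, 10728 bp from Tex101 with a fold of 4.10 and at the 2 positions on the upstream side of Dmrtb1 with folds of 5.03 and 4.07. No start peak of the 10 genes was within 1 kb of an end of another protein-coding gene, the closest being that of Slc25a31 in the adriamycin list, 3934 bp from Intu. All 5 untreated peaks assigned to the genes overlapped an adriamycin peak by at least 1 bp. With an overlap of at least 50% of both peaks, 3 of the 5 did, those at Dazl and Sohlh1 and the one near Tex19.1. The share of all untreated peaks with such an overlap is not given here, so neither count is read as a trait of the 10 genes. By summits, 79.6% of all promoter windows with an untreated summit within 1 kb of the start also had an adriamycin one.

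**Figure D4:**
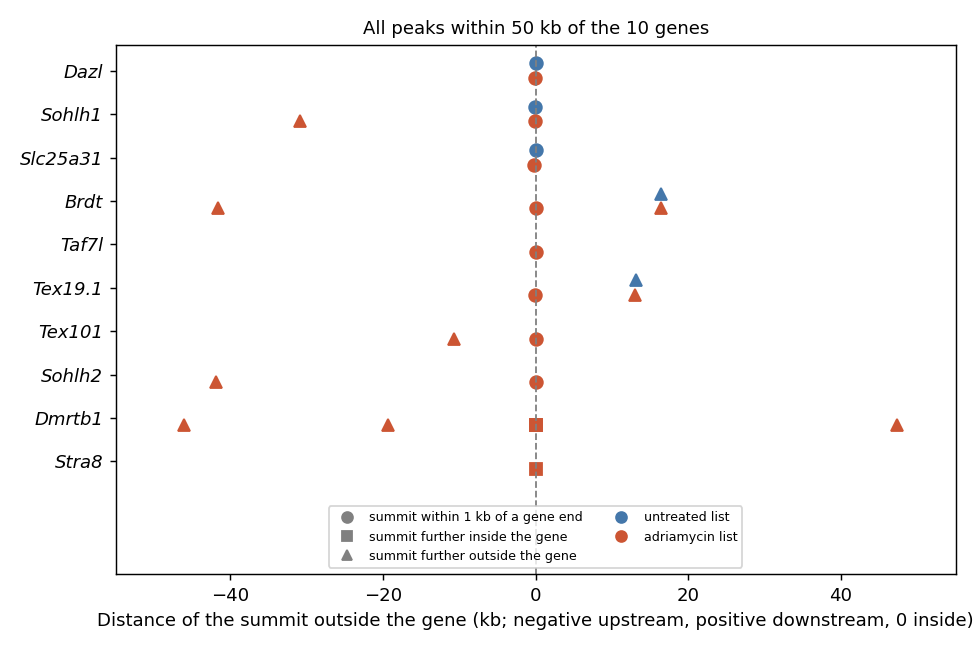
All 25 peaks assigned to the 10 genes, by the distance of the summit outside the gene in kb (negative upstream, positive downstream, 0 inside; circles within 1 kb of a gene end, squares further inside, triangles further outside; the single square of Dmrtb1 stands for 2 peaks). Blue points, from the untreated list, lie at the starts of Dazl, Sohlh1 and Slc25a31 and downstream of Brdt and Tex19.1.

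The starts of the 10 genes were mostly of middle to high CpG content. Of their 11 promoter windows of 300 bases, 7 held 14 to 23 CpG and lay in the third quartile of all windows, 2 held 28 and lay in the highest (Dazl and the first Dmrtb1 start), and 2 held 9 and 10 (the second Dmrtb1 start and Stra8). Over all promoter windows the share with an adriamycin summit within 1 kb rose with CpG count, from 2.04% in the lowest quartile through 9.46% and 16.4% to 33.6% in the highest. The untreated shares were 0.895%, 3.64%, 5.51% and 12.9%. In the third quartile all 7 of these genes (Sohlh1, Sohlh2, Taf7l, Brdt, Slc25a31, Tex101 and Tex19.1) had an adriamycin summit near the start. In the second quartile Stra8, with 10 CpG, had none, while the second Dmrtb1 start, with 9, had one within 1 kb.

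CACGTG was present in the windows of 4 of the 10 genes (Sohlh1, Taf7l, Brdt and Slc25a31), against 8.91% of all genes with a known start, and GCGGGAA in that of 1 (Slc25a31), against 6.84%. All 4 genes with CACGTG lie in the third CpG quartile, where 10.7% of windows hold it. Dazl, with the strongest untreated peak, held neither. Over all windows 18.4% of those with CACGTG had an adriamycin summit within 1 kb and 14.7% of those without. Windows with CACGTG also held more CpG, a median of 21 against 12. A match of letters is a description of the window and does not show a bound factor.

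Paralogs of the 10 genes, which share their protein family, had a gene-end peak in 1 of 17 cases untreated (5.88%, against 5.78% of all genes) and 5 of 17 with adriamycin (29.4%, against 16.0%). Taf7l2, a relative of Taf7l, was the one with a peak in both lists, at folds of 6.11 and 5.03 and pileups of 15 and 15. Among the others in the adriamycin list were Figla, Dmrt3 and Dmrta2, at folds of 5.30, 4.83 and 3.76. The partners of Slc25a31 (Slc25a4 and Slc25a5), Taf7, Tex19.2 and Boll had none in either list.

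Among 58 other germ cell regulators and testis genes, 4 had a gene-end peak untreated (6.90%) and 10 with adriamycin (17.2%), near the 5.78% and 16.0% of all genes. In both lists were Mael and Ddx4, of the germline piRNA pathway, Nanos1, which encodes an RNA-binding translational repressor, and Dkkl1, a gene of developing sperm. In the adriamycin list alone were the oocyte transcription factor genes Nobox and Figla, the receptor gene Ret, the transition protein gene Tnp2, Dmrt3 and Tex13b. Their adriamycin folds ran from 3.85 at Dkkl1 to 5.88 at Ddx4. Of the adriamycin start peaks of the 10 genes, Brdt (7.97), Dazl (7.81) and Taf7l (5.91) were above that range and Sohlh2 (3.62) below it. The other start peaks of the 10 genes lay within it. No gene of this list had a peak in the untreated list alone, and 48 had none in either.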

How the data were processed

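DPPA2 ChIP-seq of R1/E cells gave 1 deposited peak list for untreated cells and 1 for adriamycin. Groups came from the labels, that of the adriamycin library from its title. The genotype field of the adriamycin library holds its treatment in place of a genotype. The submitters' processing notes name Bowtie2 2.5.1, MACS3 3.0.0b1, SAMtools, FastQC 0.12.1, deepTools 3.5.1 and the build mm10; the calling command is not given in the sources used here, nor is any filter or input control. The fold enrichment, a ratio, is the authors' caller's value per peak, as deposited, with no scaling between libraries. Each summit's −log10 p and −log10 q were used as deposited, and the deposited score is 10 times −log10 q without its decimals in 99.97% of untreated rows and in all adriamycin rows. A further deposited value, of another kind, is the summit's distance from the peak start.

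Only peaks on the autosomes, X and Y entered (126 untreated and 142 adriamycin peaks were left out). Read totals are not in the lists. Summit pileup and local background were recovered from fold and −log10 p (pseudocount of 1, Poisson upper tail, match within 0.001) for 99.8% of untreated and 99.9% of adriamycin peaks. The step was tested on simulated data. Intervals are 95% exact Poisson intervals and cover counting error only. Pileups, like folds, are not scaled between libraries.

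Gene positions, start sites and promoter windows (250 bp before to 50 bp after a start) came from RefSeq tables of GRCm38.p6, with a start for 17492 of 21887 protein-coding genes. Named genes are the 10 genes, every gene of the 2 comparison lists with a gene-end peak (apart from 1 that is not reported here), and neighbours of assigned summits; Slc25a4, Slc25a5, Taf7, Tex19.2 and Boll were added by hand as those without one. Of 61 symbols in the list of other germ cell genes, 58 matched; 3 did not (Gcna, Meiosin and the synonym Ngn3). The genes and lists were chosen with earlier results of these data known. Alternatives were stricter peaks, equal list length, other windows and distances, start sites alone and whole peak intervals. A further one left out peaks with at least 5 times the genome-wide background, the lowest recovered in the list. Python 3.11.15, numpy 2.4.6, pandas 2.3.3, scipy 1.17.1 and matplotlib 3.10.9 were used.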

Additional observations from a re-analysis of the deposited data

How the results depend on the processing

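With adriamycin, the count of 8 genes with a gene-end peak became 5 with a q of at most 1e-05, 5 with a fold of at least 5 and 5 at equal list length. Each time the genes lost were Tex19.1, Tex101 and Sohlh2. The 9 genes with a start peak became 5 under each of the same 3 settings, a count added after the data were seen, with Dmrtb1 lost as well. With a peak inside or within 50 kb, the untreated count of 5 became 2 with a q of at most 1e-05, against 18.5% of all genes, and the adriamycin count of 10 became 6 at equal list length, against 37.0%. The number of assigned untreated peaks overlapped by an adriamycin peak was 5, and 3 with an overlap of at least 50% of both, with no share of all peaks beside it. The cause was not tested, beyond the fewer peaks that a stricter limit leaves. The other 36 recomputed counts stayed within 1.5 times the reported one. They include windows of 500 and 2500 bp, start sites alone and whole peak intervals. Limits of 20 and 100 kb and leaving out high local background are also among them. Some of these counts could not change. Equal list length leaves the untreated list whole. No assigned peak had 5 times the genome-wide background, the highest being 3.60 times. No paired analysis was possible because each group has 1 library. No replicate could be left out, and an unlisted peak gives no depth at its position.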
